A study of Mus musculus with 4 samples.

Results

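The interferon response genes Isg15, Ifit1, Ifit3, Stat2, Irf1, Irf7, Irf9, Ifih1 and Bst2 were followed in mouse neural stem cells that had received lipid nanoparticles (LNP) with or without an mRNA. They are 9 of the 55487 genes in the deposited table and were chosen by gene name. Primary neural stem cells, which divide and give rise to neurons and glia, had been grown from embryonic neocortex, and 4 groups were measured with 1 library each. The control carried Tut1f/f and received empty LNP. The other 3 groups received Cre-LNP, particles with a capped mRNA for Cre recombinase in which uridine was replaced by N1-methylpseudouridine. Cre cuts out DNA between loxP sites. These groups were Tut1 KO from Tut1f/f, Trp53 KO from p53f/f, and double KO from Tut1f/f;p53f/f cells, and the treatment lasted 3 days.

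All 4 groups thus carried floxed alleles and all received particles. No Cre-LNP library without a floxed gene, and no empty-LNP library of the p53f/f genotypes, was analysed here. The sex-linked transcripts Xist and Ddx3y also differed between the libraries. The mRNA cargo, the deletion, the culture and the sex-linked transcripts therefore cannot be told apart. With 1 library per group no difference has a replicate check, and no test was run. Values are in transcripts per 1000000 (TPM), a level scaled for transcript length with nearly the same total in each library. TPM keeps no depth, so the depth of each library and the counting error are unknown.

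Interferons are secreted proteins that cells release when sensors detect foreign RNA or DNA. They bind receptors whose JAK kinases activate STAT proteins. Stat2 and Irf9 belong to the complex ISGF3, which binds interferon-stimulated response elements (ISRE), and STAT dimers bind gamma-activated sites (GAS). RNA made in vitro can carry double-stranded by-products that such sensors recognise, and modified uridines are used in mRNA particles to lower that recognition.

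The members fall into 3 roles. Ifih1 (MDA5) is a sensor of long double-stranded RNA in the cytoplasm. Stat2 and Irf9 are parts of ISGF3, Irf1 is a transcription factor of the interferon-gamma response, and Irf7 amplifies the production of type I interferon. Isg15, Ifit1, Ifit3 and Bst2 are effectors. Isg15 is a ubiquitin-like protein that is joined to other proteins, Ifit1 binds RNA with foreign 5′ ends, Ifit3 forms complexes with other Ifit proteins, and Bst2 (tetherin) holds enveloped virus at the cell surface.

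The promoters of the members were searched for the letters of both elements, from 250 bases before to 50 bases after each RefSeq start site (GRCm38.p6). All 9 members were matched, with 11 windows in all. The ISRE core was written GAAANNGAAA, which reads TTTCNNTTTC on the other strand, and the GAS was written TTCNNNGAA, which reads the same on both strands. An ISRE core was present in 6 members, namely Isg15, Ifit1, Ifit3, Stat2, Ifih1 and Bst2, and in 3.44% of 32851 mouse promoters of this length. A GAS was present in 2 members, Irf1 and Bst2, and in 8.30% of those promoters. The letters of neither element were in the windows of Irf7 or Irf9. The 160 bases before the start site are printed for the 5 members whose control library had the lowest of the 4 levels, so that the elements can be read beside those levels. Matches are in capitals and everything else is in lower case, 5′ to 3′ on the strand of the gene.
Isg15: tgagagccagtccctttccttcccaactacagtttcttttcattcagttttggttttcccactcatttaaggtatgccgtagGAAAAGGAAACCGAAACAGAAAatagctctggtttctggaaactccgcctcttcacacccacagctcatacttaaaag
Ifit1: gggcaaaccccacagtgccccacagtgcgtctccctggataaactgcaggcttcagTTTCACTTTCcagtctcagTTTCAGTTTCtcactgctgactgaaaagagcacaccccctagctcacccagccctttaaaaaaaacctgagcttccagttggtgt
Ifit3: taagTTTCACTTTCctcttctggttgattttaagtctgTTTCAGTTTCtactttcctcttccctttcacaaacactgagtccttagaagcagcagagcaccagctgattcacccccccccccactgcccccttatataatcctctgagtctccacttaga
Bst2: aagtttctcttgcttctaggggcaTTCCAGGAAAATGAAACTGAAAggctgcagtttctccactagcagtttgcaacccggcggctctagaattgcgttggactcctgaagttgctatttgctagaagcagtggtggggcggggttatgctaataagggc
Irf1: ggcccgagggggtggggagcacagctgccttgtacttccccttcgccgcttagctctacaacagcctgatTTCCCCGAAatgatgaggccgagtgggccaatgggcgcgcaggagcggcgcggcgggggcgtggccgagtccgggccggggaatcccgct
The Isg15 stretch (chr4:156200819-156200978, minus strand) holds 3 overlapping ISRE cores, whose first bases lie 78, 72 and 66 bases before the start site. Ifit1 (chr19:34640729-34640888, plus strand) has its 2 cores at 104 and 85 bases before the start, and Ifit3 (chr19:34583369-34583528, plus strand) at 156 and 122 bases. In Bst2 (chr8:71537473-71537632, minus strand) a GAS at 136 bases runs into overlapping ISRE cores at 130 and 124 bases. Irf1 (chr11:53769854-53770013, plus strand) holds a single GAS at 90 bases. The Stat2 core begins 222 bases before its start site, and the Ifih1 core begins 32 bases after it. A match describes letters and does not show that a factor was bound.

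The labels were checked against the targeted genes. Trp53 was at 120 TPM in the control and 100.4 in the library labelled Tut1 KO, against 39.7 in the library labelled Trp53 KO and 41.9 in the library labelled double KO. Tut1 was at 12.2 TPM in the control and 29.8, 12.5 and 13.7 in the libraries labelled Tut1 KO, Trp53 KO and double KO, so its whole-gene level was not lower in either library labelled as lacking it. Cre removes only part of the Tut1 transcript by the study's methods, so a whole-gene level does not measure the deletion and checks neither label. Xist was at 188 TPM in the library labelled Tut1 KO, at 204 TPM in Trp53 KO and near 0 in the remaining libraries. Y-linked Ddx3y was at 24.4 and 25.7 TPM in those remaining libraries and listed at 0 where Xist was present. All 8 neural stem cell markers were expressed, with a summed level of 10585 to 12487 TPM that included Fabp7, Vim, Nes and Sox2. Of 10 microglia and macrophage markers, 7 were listed at 0 in every library.

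The 9 genes stood at low to moderate levels in every library, and none reached 15 TPM. By mean TPM over the 4 libraries the order was Bst2, Irf1, Irf9, Stat2, Isg15, Ifit3, Ifih1, Ifit1 and Irf7, with Bst2, Irf1, Irf9 and Stat2 at a mean of 1 TPM or more and the other 5 below it. Neighbours in this order cannot be separated by a replicate spread, since there is none. The control had the lowest level of the 4 libraries for 5 members and lay inside the range of the Cre-LNP libraries for the other 4. Over all genes the control was lowest for 18.1% of those with a mean of 1 TPM or more and for 13.0% of those below it. Bst2 was the member with the highest level in each library, and Isg15 the one with the widest range on the log2(TPM + 1) scale.

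**Figure D1:**
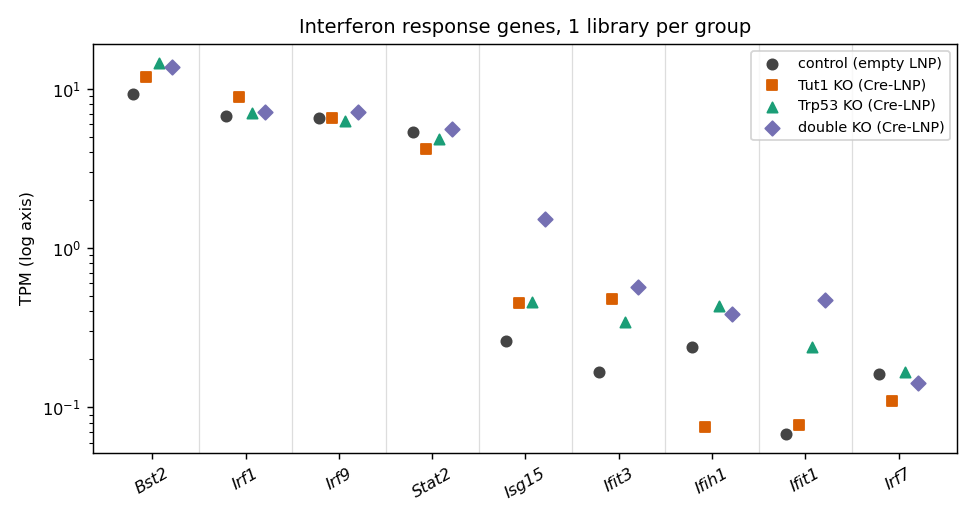
Level of each interferon response gene in TPM (log axis) in the control (circle) and in the libraries labelled Tut1 KO (square), Trp53 KO (triangle) and double KO (diamond), 1 library per group and no error bar. Bst2 sits between 9.29 and 14.6 TPM with the control lowest, Irf9 between 6.28 and 7.15 TPM, and Isg15 between 0.260 and 1.53 TPM with the double KO library highest.

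Differences were taken on the log2(TPM + 1) scale, which understates the change of genes near 0, as the mean of the 3 Cre-LNP libraries minus the control. Genes with a mean of at least 1 TPM over the 4 libraries were used, and a gene was called at a difference of 1 or more. No member was called in either direction. Of the 14157 genes used, 1.16% were called higher and 1.57% lower. The median difference of the 4 members that passed was 0.08, beside -0.06 over all genes, whose 5th and 95th percentiles were -0.56 and 0.47. In bulk samples, a change in how many cells express a gene and a change in RNA per cell cannot be told apart.

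Bst2 differed most among these 4. It was at 9.29 TPM in the control, and at 11.8, 14.6 and 13.8 TPM in the libraries labelled Tut1 KO, Trp53 KO and double KO. Every Cre-LNP library lay above the control, and the lowest of them exceeded it by 0.32 on the log2 scale. The mean difference was 0.48, a level 1.45 times that of the control in TPM, and the Cre-LNP libraries spanned 0.28 among themselves. That difference lies just above the 95th percentile of all genes.

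Irf1 was at 6.79 TPM in the control, and at 8.92, 7.01 and 7.16 TPM in the libraries labelled Tut1 KO, Trp53 KO and double KO. The control was again lowest, but only the library labelled Tut1 KO stood away from the rest, with a difference of 0.35 against 0.04 and 0.07 for the others. An antisense transcript, Gm17334, overlaps Irf1, and the way strand was used in counting is not given in the sources used here.

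The ISGF3 parts lay close together. Irf9 was at 6.60 TPM in the control, and at 6.58, 6.28 and 7.15 TPM in the libraries labelled Tut1 KO, Trp53 KO and double KO, a mean difference of 0.01. Stat2 was at 5.33 TPM in the control and at 4.19, 4.83 and 5.56 TPM in the same libraries, a mean difference of -0.12. For both genes the control lay within the range of the Cre-LNP libraries. Irf9 shares exon sequence with Rnf31 on the same strand, so its level is uncertain.

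Among the single comparisons with the control, none of the 4 members was called. Over all genes used, the calls by label were 1.65% upward and 2.69% downward for Tut1 KO, 1.86% upward and 2.20% downward for Trp53 KO, and 1.61% upward and 2.18% downward for double KO. None was called between the Cre-LNP libraries either. There, the shares of all genes were 1.60% upward and 1.79% downward for double KO minus Trp53 KO, 2.15% upward and 1.99% downward for double KO minus Tut1 KO, and 2.51% upward and 2.17% downward for Trp53 KO minus Tut1 KO. The control had the lowest level of the 4 libraries for 2 of the 4 members, Bst2 and Irf1, as it did for 18.1% of all genes. It had the highest level for none of them, beside 30.1% of all genes. With 4 members these counts are too small to read against those shares.

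The remaining 5 members had a mean above 0 and under 1 TPM, and their values are given as levels with no call. Isg15 was at 0.260 TPM in the control, and at 0.452, 0.461 and 1.53 TPM in the libraries labelled Tut1 KO, Trp53 KO and double KO. The double KO library stood apart, with a difference from the control of 1.0 on the log2(TPM + 1) scale against 0.20 and 0.21 for the other Cre-LNP libraries. It lay 0.79 above the Trp53 KO and 0.80 above the Tut1 KO library.

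Ifit1 was at 0.0675 TPM in the control, and at 0.0775, 0.240 and 0.472 TPM in the libraries labelled Tut1 KO, Trp53 KO and double KO. Ifit3 was at 0.166 TPM in the control, and at 0.479, 0.343 and 0.566 TPM in these libraries. For both genes the control was lowest and the double KO library highest, but for Ifit1 the library labelled Tut1 KO was next to the control, while for Ifit3 it was next to the double KO library. The near-identical copy Ifit3b was at 0.122 TPM in the control and lower in the Cre-LNP libraries, and how reads were divided between the copies is not given in the sources used here.

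Ifih1, the sensor among the members, was at 0.239 TPM in the control, and at 0.0752, 0.433 and 0.386 TPM in the libraries labelled Tut1 KO, Trp53 KO and double KO. Its control level lay inside the range of the Cre-LNP libraries. Irf7 was at 0.162 TPM in the control, and at 0.109, 0.167 and 0.141 TPM in the same libraries. Irf7 had the lowest mean level of the 9 members, its control level lay inside the range of the Cre-LNP libraries, and it overlaps Phrf1 on the opposite strand.

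The control was lowest in 3 of these 5 members, Isg15, Ifit1 and Ifit3, as it was in 13.0% of the 13477 genes with a mean above 0 and under 1 TPM. The double KO library was highest in the same 3, as it was in 25.1% of those genes. A gene at 0 in the control and in any Cre-LNP library cannot count as lowest in the control, and no member was at 0 in any library. With 5 members these counts are too small to read against those shares. The summed level of the microglia and macrophage markers, almost wholly P2ry12, was also lowest in the control and highest in the double KO library, at 0.267 TPM in the control and 0.430, 0.669 and 0.747 TPM in the libraries labelled Tut1 KO, Trp53 KO and double KO. P2ry12 overlaps exons of Med12l on the opposite strand, so its level is uncertain. Of the other markers in that list, Csf1r was at 0.0175 TPM in the library labelled Tut1 KO only. Ptprc was at 0.0161 TPM in the library labelled Trp53 KO only, and the remaining 7 were listed at 0 throughout. The 6 endothelial markers summed to 0.703, 0.849, 0.913 and 1.20 TPM in that order of libraries. The mesenchymal markers were highest in the control, at 0.496, 0.454, 0.296 and 0.339 TPM, while the neuron markers summed to 32.7, 25.3, 30.9 and 28.2 TPM and those of the oligodendrocyte lineage to 50.1, 42.4, 46.4 and 55.1 TPM. The part of any of these in the levels of the members was not tested.

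Genes with the pattern most like that of Isg15 were sought among those with a mean of at least 1 TPM, by Euclidean distance between log2(TPM + 1) values centred per gene over the 4 libraries. The nearest was Glmp, at a distance of 0.15, with 14.1 TPM in the control and 15.8, 14.8 and 30.7 TPM in the libraries labelled Tut1 KO, Trp53 KO and double KO. It was followed by Thtpa (0.17), Atf4 (0.17), Greb1 (0.20) and Lin52 (0.21). Atf4, a transcription factor of the integrated stress response, was at 131 TPM in the control and 131, 133 and 230 TPM in the Cre-LNP libraries. These 5 genes were chosen by distance from Isg15, so a highest level in the double KO library follows from that choice. With 4 points, nothing more can be said about likeness.

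Around the members, 178 further genes of the pathway were listed by role. Of these, 89 had a mean of at least 1 TPM, 49 lay between 0 and 1, and 40 were listed at 0 throughout. Among the 89, 1 was called higher, Cxcl10, and 2 lower, Gbp3 and Traf3, counts near the 1.16% and 1.57% of all genes, and the median difference of the 89 was -0.02. With a pseudocount of 5 none of the 3 was called. The control was lowest for 27.0% of them and highest for 24.7%, beside the 18.1% and 30.1% of all genes.

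**Figure D2:**
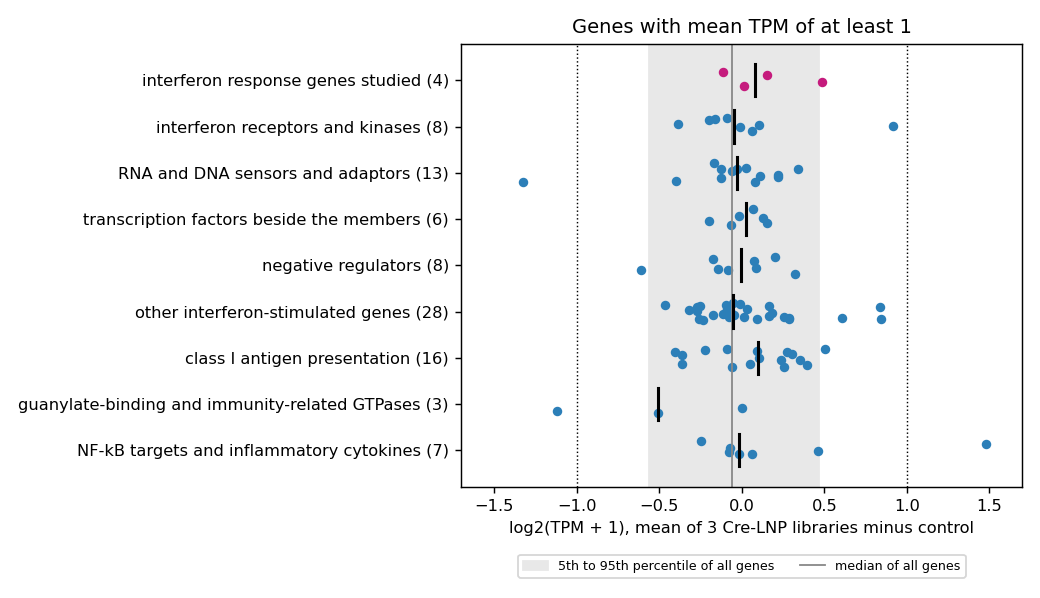
Mean of the 3 Cre-LNP libraries minus control on the log2(TPM + 1) scale for each gene (point) of each list, with the number of genes at a mean of at least 1 TPM in brackets and the list's median as a black bar. The medians of the lists lie near that of all genes, apart from the 3 guanylate-binding and immunity-related GTPases at -0.51, and only Cxcl10, Gbp3 and Traf3 lie past the dotted lines at 1 and -1.

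Interferon ligands were close to or at 0. Of 21 ligand genes, 17 were listed at 0 in every library, Ifnb1 and Ifng among them, and the highest single value was 0.156 TPM. Their summed level was 0.162 TPM in the control and 0.110, 0.0188 and 0.0951 TPM in the libraries labelled Tut1 KO, Trp53 KO and double KO, and 0.156 TPM of the control's sum was Ifna7, listed at 0 in the Cre-LNP libraries.

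Receptors and their kinases, in contrast, were expressed, 8 of 9 with a mean of at least 1 TPM and none called. The type I receptor chains Ifnar1 and Ifnar2 lay between 21.8 and 25.3 TPM in all libraries, with differences of -0.09 and 0.10. Il10rb, a chain shared by the receptors of lambda interferons and interleukin 10, differed by 0.06. Ifnar2 and Il10rb both overlap exons of Gm21970, so their levels are uncertain. The kinases Jak1 and Jak2 were lower in the Cre-LNP libraries on average, by differences of -0.16 and -0.39, and the control had the highest level of both.

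The chains of the interferon-gamma receptor differed from each other. Ifngr1, the ligand-binding chain, was at 11.2 TPM in the control, 27.6 in the library labelled Tut1 KO, 30.7 in Trp53 KO and 12.5 in the library labelled double KO. The single deletions by label lay above the control by 1.23 and 1.38 on the log2 scale and the double KO by 0.14. The libraries high in Ifngr1 were those with Xist, and this was not tested further. Ifngr2 was at 16.8 TPM in the control and at 16.2, 13.8 and 13.4 TPM in the Cre-LNP libraries.

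**Figure D3:**
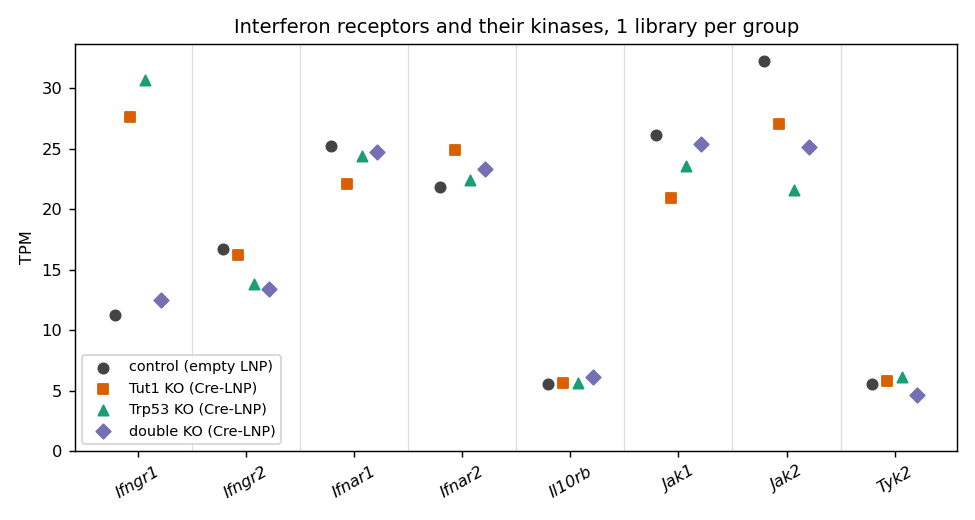
Level in TPM (linear axis from 0) of the interferon receptor chains and their kinases in the control (circle) and in the libraries labelled Tut1 KO (square), Trp53 KO (triangle) and double KO (diamond), 1 library per group. Ifngr1 is at 27.6 TPM (square) and 30.7 TPM (triangle) against 11.2 TPM in the control and 12.5 TPM (diamond), whereas Ifnar1 and Ifnar2 lie between 21.8 and 25.3 TPM throughout.

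Sensors and adaptors had 13 of 18 genes at a mean of at least 1 TPM, of which 1 was called, and a median difference of -0.03. Traf3, an adaptor between sensors and the kinase Tbk1, was at 9.46 TPM in the control and at 2.36, 3.84 and 3.45 TPM in the libraries labelled Tut1 KO, Trp53 KO and double KO, a difference of -1.33. Each Cre-LNP library lay below the control by more than 1. Tank, another adaptor of Tbk1, differed by -0.40 and Tbk1 itself by -0.17. Highest in the list were Sting1, the adaptor of cytoplasmic DNA sensing, at 0.34, the DNA sensor Cgas at 0.22 and the RNA-binding helicase Dhx58 at 0.22. Sting1 was at 24.7 TPM in the library labelled Trp53 KO and between 12.4 and 12.8 TPM in the others, so its difference came from 1 library. RNA sensors beside Ifih1, picked after their values were seen, were at 3.51 to 4.80 TPM for Ddx58 (RIG-I) and 2.82 to 3.98 TPM for Tlr3, whereas Tlr7 was at 0.0545 to 0.122 TPM and Tlr8 at 0.0140 TPM in the control and listed at 0 elsewhere.

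Transcription factors beside the members numbered 10, of which 6 had a mean of at least 1 TPM. None was called. Irf2 differed by -0.07, Rela by -0.02, Irf3 by 0.07, Stat3 by 0.13 and Nfkb1 by 0.15. Of 10 negative regulators 8 passed and none was called. Ptpn6, a phosphatase of JAK signalling, differed by 0.32, the suppressor of cytokine signalling Socs3 by 0.20 and the corepressor Irf2bp1 by 0.09. Lowest were Ptpn2 (-0.15), Pias1 (-0.17) and Trex1 (-0.61). Trex1, a nuclease that removes cytoplasmic DNA, was at 4.0 TPM in the control and at 3.49, 2.64 and 1.13 TPM in the Cre-LNP libraries, but it overlaps exons of Atrip and its level is uncertain.

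Other interferon-stimulated genes numbered 60, of which 28 had a mean of at least 1 TPM. None was called, the median was -0.05, and the control was lowest for 9 and highest for 6, beside 18.1% and 30.1% of all genes. The highest differences were those of Ifitm2, Ifitm3 and Ifi27. Ifitm3, a membrane protein that hinders the entry of viruses, was at 12.5 TPM in the control and at 29.5, 21.6 and 19.2 TPM in the libraries labelled Tut1 KO, Trp53 KO and double KO, a difference of 0.84. Ifitm2, its close relative, was at 51.2 TPM in the control and at 100.2, 97.4 and 82.0 TPM in these libraries, a difference of 0.84. In both genes each Cre-LNP library lay above the control and the library labelled Tut1 KO was highest. Ifitm2 overlaps exons of Gm45717, and reads of these related genes could be shared. Ifi27 differed by 0.60, whereas Tdrd7 (-0.46), Cmpk2 (-0.32) and Lgals3bp (-0.27) were lowest.

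Of the 18 genes of this list between 0 and 1 TPM, 10 were highest in the double KO library, beside 25.1% of all such genes. The control was highest for 4 of the 18, Ifit3b, Parp14, Samd9l and Uba7, beside 3416 of all 13477 such genes. Some of the 10, picked after their values were seen, can be set beside Isg15. Oasl1 was at 0.0815 TPM in the control and at 0.0754, 0.418 and 0.785 TPM in the libraries labelled Tut1 KO, Trp53 KO and double KO. Oasl2 was at 0.137, 0.0526, 0.270 and 0.951 TPM in the same order, starting with the control. Both belong to the oligoadenylate synthetase-like family. Rsad2 (viperin) was at 0.233, 0.314, 0.377 and 0.586 TPM. Usp18, which removes Isg15 from proteins, comes from the list of negative regulators and was picked in the same way. It was at 0.101, 0.0861, 0.243 and 0.568 TPM. In these 4 genes the library labelled Trp53 KO came second to the double KO. Over all 49 pathway genes at such levels, 34.7% were highest in the double KO library and 14.3% were lowest in the control, beside 25.1% and 13.0% of all genes.

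**Figure D4:**
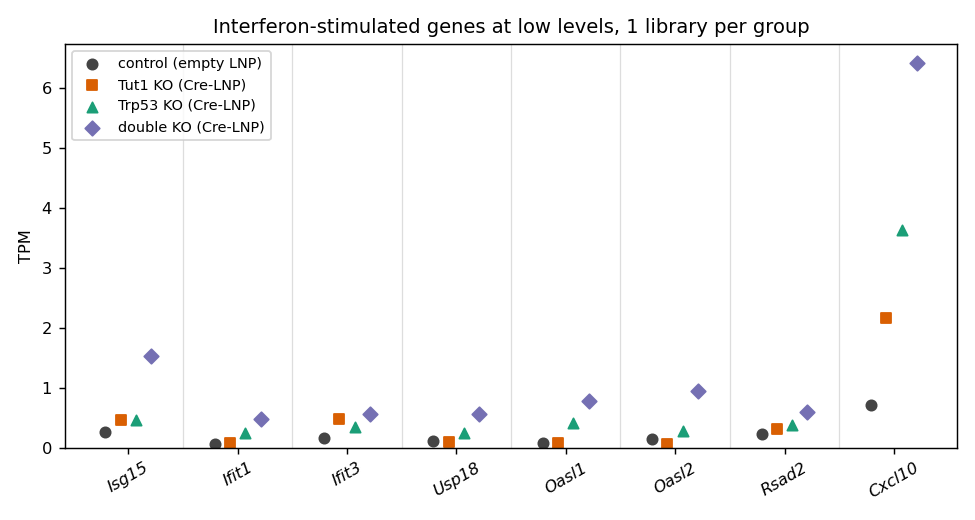
Level in TPM (linear axis from 0) of Isg15, Ifit1, Ifit3, Usp18, Oasl1, Oasl2, Rsad2 and Cxcl10 in the control (circle) and in the libraries labelled Tut1 KO (square), Trp53 KO (triangle) and double KO (diamond), 1 library per group. The double KO library is highest for each of the 8 genes, at 1.53 TPM for Isg15 and 6.42 TPM for Cxcl10, and all but Isg15 and Cxcl10 stay under 1 TPM. The genes beside the members were picked after their values were seen, so the shared pattern follows from the choice. The other members with a mean under 1 TPM, Ifih1 and Irf7, were highest in the library labelled Trp53 KO and are not shown.

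Cxcl10, a chemokine induced by interferon and NF-kB, was the pathway gene called higher. It was at 0.711 TPM in the control and at 2.16, 3.63 and 6.42 TPM in the libraries labelled Tut1 KO, Trp53 KO and double KO, a mean difference of 1.48, which was 0.64 with a pseudocount of 5. Each Cre-LNP library was above the control. Art3 overlaps it on the opposite strand. Of the 19 NF-kB targets and inflammatory cytokines 7 passed, and Cxcl10 alone was called. The chemokine Ccl2 differed by 0.46 and Nfkbia by 0.06, while Nfkb2 (-0.07), Vcam1 (-0.08) and Tnfaip3 (-0.25) were lowest.

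Guanylate-binding and immunity-related GTPases, which act against microbes inside cells, had 3 of 15 genes at a mean of at least 1 TPM. Gbp3 was at 8.38 TPM in the control and at 3.48, 3.12 and 3.35 TPM in the libraries labelled Tut1 KO, Trp53 KO and double KO, a difference of -1.12. The Cre-LNP libraries lay close together, all below the control. Gbp7, which overlaps exons of Gm43802, differed by -0.51 and Irgm1 by -0.00.

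All 16 genes of class I antigen presentation had a mean of at least 1 TPM and none was called, with a median of 0.10. Tap2 (0.50), which forms the peptide transporter with Tap1, the proteasome subunit Psmb10 (0.39) and the class I heavy chain H2-D1 (0.35) were highest. Psmb9 (-0.41), Tapbp (-0.36) and Tap1 (-0.36) were lowest. Tap1 was at 5.92 TPM in the control and at 9.28 TPM in the library labelled Tut1 KO, against 2.67 and 3.13 TPM in the libraries labelled Trp53 KO and double KO. Psmb9 was at 1.78 and 2.10 TPM in the former pair and at 0.724 and 0.713 TPM in the latter. Tap1 and Psmb9 overlap each other on opposite strands, so their levels cannot be fully told apart where strand was not used.

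The libraries were also compared by Trp53 label, as double KO minus Tut1 KO and as Trp53 KO minus control, which share no library. Bst2 was the one member of the 4 for which both Trp53-deleted libraries lay above both others, with differences of 0.21 and 0.60. This held for 14.6% of all genes used and the opposite order for 14.2%, which no member showed. Among the members under 1 TPM, Isg15, Ifit1 and Ifih1 also had both Trp53-deleted libraries above both others, Isg15 by only 0.008. The share of all genes at such levels was not computed. Of the 89 further pathway genes, 16.9% were higher and 11.2% lower in both Trp53-deleted libraries, shares near those of all genes. Tap1, a gene p53 is known to induce, differed by -1.32 and -0.91. Cxcl10 differed by 1.23 and 1.44, and H2-D1 by 0.56 and 0.70. Of genes picked after their values were seen, Isg20 differed by -1.23 and -0.63 and H2-K1 by 0.50 and 0.65.

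**Figure D5:**
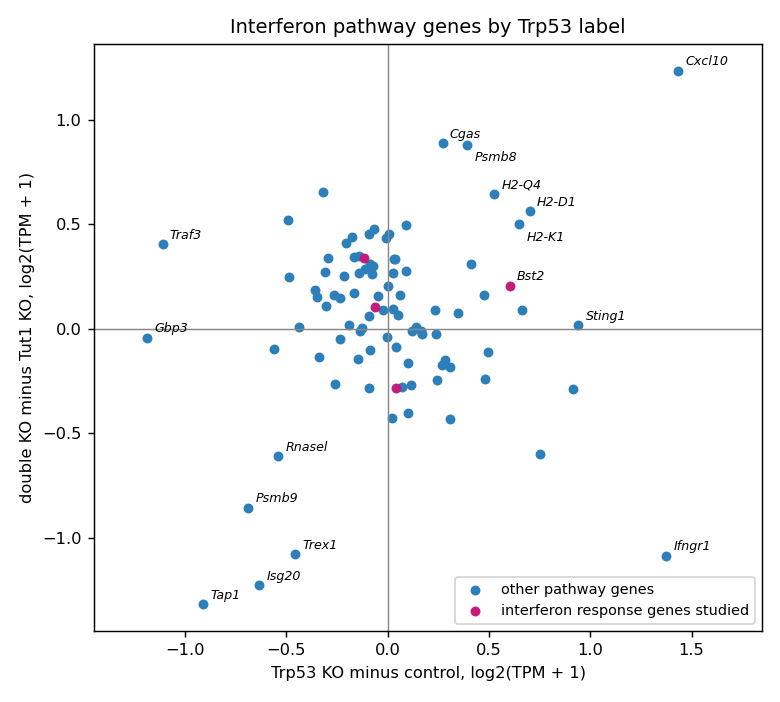
Trp53 KO minus control (horizontal axis) against double KO minus Tut1 KO (vertical axis), both as differences of log2(TPM + 1), for the interferon response genes (magenta) and the other pathway genes (blue) with a mean of at least 1 TPM. Bst2, at 0.60 and 0.21, is the member that lies to the upper right, while Tap1 at -0.91 and -1.32 and Cxcl10 at 1.44 and 1.23 lie at opposite corners; each point rests on 4 libraries without replicates.

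The members are spread over 8 chromosomes in GRCm38. Isg15 (ENSMUSG00000035692) lies on chr4:156199424-156200818, Bst2 (ENSMUSG00000046718) on chr8:71534255-71537456, Irf7 (ENSMUSG00000025498) on chr7:141262706-141266481 and Ifih1 (ENSMUSG00000026896) on chr2:62595798-62646255, each on the minus strand. On the plus strand lie Stat2 (ENSMUSG00000040033) on chr10:128270559-128292849, Irf1 (ENSMUSG00000018899) on chr11:53770014-53778374 and Irf9 (ENSMUSG00000002325) on chr14:55603571-55610030. Ifit1 (ENSMUSG00000034459, chr19:34640871-34650009) and Ifit3 (ENSMUSG00000074896, chr19:34583531-34588731), also on the plus strand, lie in the Ifit gene cluster, with Ifit3b and Ifit1bl1 between them.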

How the data were processed

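RNA had been sequenced from 4 libraries of mouse neural stem cells, 1 per group as the labels give it. The table deposited by the authors holds TPM per Ensembl gene. The submitters' processing notes name Trimmomatic, HISAT2, StringTie and mm10, without versions or roles. A stranded kit for short reads is named in the labels and long reads in the series text, and which of these gave the TPM is unsure. Whether cultures were pooled is not given in the sources used here. Members, lists and contrasts were chosen with earlier results of these data known.

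Differences were taken on log2(TPM + 1) for the 14157 genes with a mean of at least 1 TPM and called at 1. Named were the members, the 3 highest and 3 lowest genes of each other list, Tut1, Trp53, Xist and Ddx3y, and the 5 genes nearest to Isg15, leaving out predicted genes, Riken clones and pseudogenes. The values of 1 listed gene are not reported here. Positions came from GENCODE M21 and promoters from RefSeq. Alternatives were other pseudocounts, minimums, scalings, a 1.5-fold threshold, each Cre-LNP library left out, and a correction for GC content and length. The code was tested on simulated data for the mean of the Cre-LNP libraries minus control, over 14181 genes. It recovered 98.4% of the genes that were shifted by a log2 value of 1.5 and passed the minimum. The shifted genes all had control levels above 1 TPM, so the members under 1 TPM are not covered. The tools were matplotlib 3.10.9, pandas 2.3.3, numpy 2.4.6 and Python 3.11.15.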

Additional observations from a re-analysis of the deposited data

Results flagged for a closer look

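Ifngr1 moved in opposite directions with the Tut1 label. Library labelled Tut1 KO minus control was 1.23 on the log2(TPM + 1) scale, and double KO minus Trp53 KO was -1.23, so the contrasts differed by 2.46. With 1 library per group the difference between them was not tested. Libraries high in Ifngr1 also held Xist, at 188 and 204 TPM, and the others held Ddx3y, so genotype and the sex-linked transcripts cannot be told apart here.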

How the results depend on the processing

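No paired analysis was possible because the labels carry no replicate numbers and each group has 1 library. The median difference of the members was 0.48 with a minimum of 10 TPM, where only Bst2 entered, and 0.17 with a pseudocount of 0.1 and no minimum, a setting chosen after seeing the data. It was 0.04 without the Tut1 KO library, 0.13 without the Trp53 KO library, 0.15 with no minimum, 0.13 with the median of all genes set to 0 and 0.16 with quantile normalization. The control was lowest in 1 member with a minimum of 10 TPM and in 5 of 9 with no minimum, under either pseudocount. It was highest in 0 to 2 members when each Cre-LNP library was left out in turn, with 2 without the double KO library, where Irf9 also turned to -0.03. Over the 6 pairs of libraries, 1 member value was past the threshold with no minimum (Isg15, double KO minus control, 1.0), 1 at 1.5-fold (Bst2 in Trp53 KO, 0.60) and 10 with a pseudocount of 0.1 and no minimum. In that last setting 2 members were called higher, Isg15 at 1.14 and Ifit3 at 1.06, beside 1056 of all 27634 genes higher and 1414 lower. Bst2 kept a positive difference in each setting, from 0.36 to 0.57.

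Cxcl10, Gbp3 and Traf3 were not called with a pseudocount of 5, at 0.64, -0.69 and -0.82, nor with a minimum of 10 TPM, which removed them. At 1.5-fold, 5 of 89 pathway genes were higher and 3 lower, beside 473 and 667 of all 14157 genes. With a pseudocount of 0.1 and no minimum, 5 of 138 were higher and 5 lower. Without the double KO library Ifngr1 was added to the called genes. The Ifngr1 contrast difference ran from 2.04 to 2.62. Counting error is unknown, also for the members with a mean under 1 TPM.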
